A study of Homo sapiens with 2 samples.

Results

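Metallothioneins are short, cysteine-rich proteins that bind zinc and copper in the cytosol. The data here describe 5 of their genes, MT2A, MT1E, MT1X, MT1G and MT1F, together with SLC30A1, which encodes the zinc exporter of the plasma membrane, and MTF1, which encodes the metal-sensing transcription factor that acts on both. These 7 genes were chosen by name from the 36601 genes in the files, with their levels in the cell classes and quartiles below already known, so all class and quartile values are descriptions and carry no test. All cells came from 1 culture of HES2, a line of human embryonic stem cells, differentiated towards SANLPC, sinoatrial node-like pacemaker cells. They were stained with a barcoded antibody against human CD34 (TotalSeq A0054), sorted for live single cells by DAPI staining without selection on CD34, and made into 1 RNA and 1 antibody-tag library of the same cells by droplet 3′ sequencing, a pairing called CITE-seq. There was no replicate culture and no untreated control, so no value here has a replicate check and no p-value is given.

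Of 14829 barcodes, 11211 (75.6%) were kept, with a median of 16607 RNA unique molecular identifiers (UMIs) and a 5th to 95th percentile range of 4330.5 to 30198.5. Kept cells had at least 1000 detected genes, at most 25% of UMIs from mitochondrial genes and at most 35000 RNA UMIs. Cardiomyocytes (5516 cells) were cells with at least 2000 CPM (UMI counts scaled to a fixed total) of TNNT2, cardiac troponin T. Fibroblast-like cells (617) had under 1000 CPM of TNNT2 and at least 2000 CPM of COL1A1, a collagen gene. Epithelial-like cells (4046) had under 1000 CPM of both and at least 5 UMIs of VTCN1, GATA3, CLDN4 and WNT6 together. The remaining 1032 cells were in no class. The 6 cardiomyocyte markers summed to 39102 CPM in cardiomyocytes, 1004 CPM in fibroblast-like and 1047 CPM in epithelial-like cells. The 6 epithelial markers summed to 267, 173 and 2670 CPM in the same order, which the choice of classes fixed in part, since TNNT2 and 4 of the epithelial markers defined them. In addition, 4 blood markers gave 1, 2 and 3 counts in cardiomyocytes, fibroblast-like and epithelial-like cells. The 6 mesenchymal markers summed to 690 CPM in cardiomyocytes, 20867 CPM in fibroblast-like and 4054 CPM in epithelial-like cells, more than the epithelial markers did in the last. COL1A1, among these 6, also defined the fibroblast-like and epithelial-like classes, and alone had 6222 CPM in fibroblast-like cells.

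In mammalian cells MTF1 senses a rise in free zinc, enters the nucleus and binds short DNA motifs called metal response elements in the promoters of metallothionein genes and of SLC30A1. Metallothioneins then hold the metal in the cell while SLC30A1 carries zinc out across the plasma membrane, so the transcripts of both are widely used as readouts of zinc load. MTF1 itself is regulated mainly at the level of the protein. In the heart, zinc takes part in excitation and in enzymes of oxidative defence, and metallothioneins are known there for protection against metals and oxidants.

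By the RefSeq annotation of GRCh38.p14, the metallothioneins sit together on chromosome 16, with MT2A (ENSG00000125148) at chr16:56608584-56609497, MT1E (ENSG00000169715) at chr16:56625781-56627112 and MT1F (ENSG00000198417) at chr16:56657959-56659303. MT1G (ENSG00000125144) follows at chr16:56666730-56668065 and MT1X (ENSG00000187193) at chr16:56682470-56684196. SLC30A1 (ENSG00000170385) lies at chr1:211571568-211579161 and MTF1 (ENSG00000188786) at chr1:37809574-37859592, and all 7 are annotated as protein-coding. The promoters are shown because metal response elements can be looked for in them. Windows running from 250 bases before to 50 bases after the start site were given by RefSeq (GRCh38.p14) for 4 of the 7 genes, MT2A, MT1X, SLC30A1 and MTF1. MT1E, MT1F and MT1G had no entry. The core of the metal response element was searched as TGCACNC and TGCGCNC on both strands, and no matches overlapped. The 250 bases before the start site are printed 5′ to 3′ on the strand of the gene, with core matches in capitals; a match on the opposite strand reads GNGTGCA or GNGCGCA. They lie at chr16:56608334-56608583 on the plus strand for MT2A, at chr16:56682220-56682469 on the plus strand for MT1X and at chr1:211579162-211579411 on the minus strand for SLC30A1.
MT2A: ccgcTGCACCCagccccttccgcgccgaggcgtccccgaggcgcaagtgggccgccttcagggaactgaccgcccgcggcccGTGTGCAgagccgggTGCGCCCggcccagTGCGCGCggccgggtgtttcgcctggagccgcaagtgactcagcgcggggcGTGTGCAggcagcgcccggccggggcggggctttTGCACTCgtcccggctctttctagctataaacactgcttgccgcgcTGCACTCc
MT1X: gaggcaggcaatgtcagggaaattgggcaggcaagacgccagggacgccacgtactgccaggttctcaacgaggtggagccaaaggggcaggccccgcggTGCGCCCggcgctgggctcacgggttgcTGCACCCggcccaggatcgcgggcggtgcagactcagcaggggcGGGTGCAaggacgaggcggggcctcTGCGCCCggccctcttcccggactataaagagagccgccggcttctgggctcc
SLC30A1: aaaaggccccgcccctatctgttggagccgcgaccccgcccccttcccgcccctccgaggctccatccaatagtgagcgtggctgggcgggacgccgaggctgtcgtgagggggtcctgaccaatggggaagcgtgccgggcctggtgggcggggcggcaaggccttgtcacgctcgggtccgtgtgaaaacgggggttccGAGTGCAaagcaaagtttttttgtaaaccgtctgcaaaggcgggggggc
In the full windows MT2A held 8 matches, 7 of them before the start site between 8 and 246 bases upstream. Of all 35116 promoter windows of this length, 0.0199% held as many or more. MT1X held 4 matches, between 53 and 150 bases upstream, and 0.601% of windows held as many or more. SLC30A1 held 2, the first 49 bases upstream and the second after the start site, and 8.60% of windows held at least as many. MTF1 had no core match in its window, as was so for 70.4% of all windows, and 29.6% had at least 1 match. A match describes the sequence and not a bound site.

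By summed counts, metallothionein transcripts were several times higher in cardiomyocytes than in either other class, except for MT1F, which was highest in epithelial-like cells. Summed over the 5 genes they reached 891 CPM in cardiomyocytes (exact 95% counting interval 884 to 897), 206 CPM in fibroblast-like cells (198 to 215) and 177 CPM in epithelial-like cells (174 to 181). All intervals here cover counting error only. Medians over single cells lay closer, at 179 CPM of the 5 summed genes in cardiomyocytes, 125 CPM in fibroblast-like and 104 CPM in epithelial-like cells. For MT2A these medians were 65.3, 62.9 and 47.3 CPM, and for MT1E 50.5, 0 and 0 CPM. A gene counted as measured where the higher of 2 groups had at least 10 CPM, and as higher or lower at 1.5-fold. By that rule 5 of the 6 members measured were higher in cardiomyocytes than in epithelial-like cells, where 20.7% of all measured genes were, and 1 was lower, where 27.9% were. Against fibroblast-like cells 5 of 5 were higher, beside 20.2% of all genes, and 0 were lower, beside 24.4%. Between fibroblast-like and epithelial-like cells none of 5 was higher, beside 18.5% of genes, and 2 were lower, MT1F and SLC30A1, beside 20.0% of genes.

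**Figure D1:**
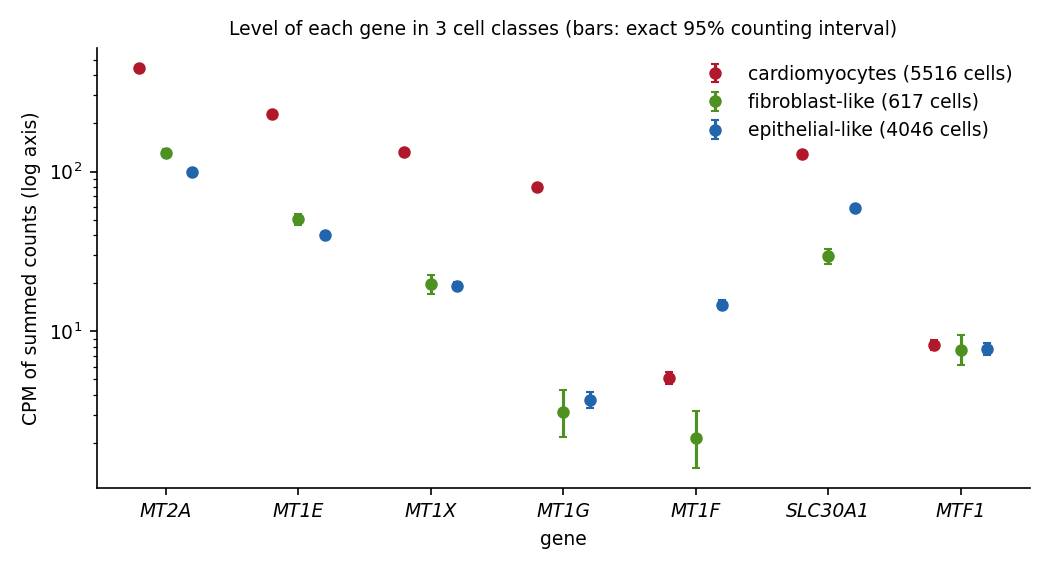
Level of the 7 genes in CPM (log axis) in cardiomyocytes, fibroblast-like and epithelial-like cells, with exact 95% counting intervals as bars. The first 4 metallothioneins and SLC30A1 are highest in cardiomyocytes, MT1F is highest in epithelial-like cells at 14.7 CPM, and MTF1 lies near 8 CPM in every class.

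MT2A, the most widely expressed human metallothionein, was also the most abundant here, with 442 CPM in cardiomyocytes, 131 CPM in fibroblast-like and 99.5 CPM in epithelial-like cells. Cardiomyocytes were thus 3.37-fold above fibroblast-like and 4.44-fold above epithelial-like cells (4.33 to 4.56). MT1E followed at 230, 50.3 and 40.3 CPM in cardiomyocytes, fibroblast-like and epithelial-like cells, which put cardiomyocytes 4.58-fold and 5.71-fold higher. MT1X had 133 CPM in cardiomyocytes, 19.7 CPM in fibroblast-like and 19.2 CPM in epithelial-like cells, ratios of 6.75 and 6.91. The difference between cardiomyocytes and the others thus grew from the most to the less abundant of these 3 genes. Fibroblast-like over epithelial-like ratios stayed near 1, at 1.32 for MT2A, 1.25 for MT1E and 1.02 for MT1X.

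Of the 5 summed genes MT1G had the highest ratio of cardiomyocytes to either other class, with 80.4 CPM there, 3.11 CPM in fibroblast-like and 3.72 CPM in epithelial-like cells (25.9-fold and 21.6-fold). The 2 low values equalled 3.86% and 4.63% of the cardiomyocyte level. The 6 cardiomyocyte markers, genes that should be absent there, lay between 2.20% and 3.13% of their cardiomyocyte level in fibroblast-like and between 2.09% and 4.95% in epithelial-like cells, where TNNT2 alone lay above MT1G. MT1G was thus slightly above all 6 markers in fibroblast-like cells and above 5 of 6 in epithelial-like cells, and the part of free RNA in these low counts was not tested. MT2A lay well above the markers, at 29.7% of its cardiomyocyte level in fibroblast-like and 22.5% in epithelial-like cells, as did MT1E (21.9% and 17.5%) and MT1X (14.8% and 14.5%). After each cell was thinned to 5000 UMIs, an MT1G UMI was found in 17.8% of cardiomyocytes, 1.68% of fibroblast-like and 2.19% of epithelial-like cells (28.5%, 5.51% and 5.73% unthinned), at median depths of 16209, 18537 and 17452.5 UMIs.

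MT1F, a minor member of the family here, was lower in cardiomyocytes than in epithelial-like cells. It had 5.10 CPM in cardiomyocytes (4.65 to 5.58), 2.16 CPM in fibroblast-like cells (1.40 to 3.18) and 14.7 CPM in epithelial-like cells (13.8 to 15.6). The ratio of cardiomyocytes to epithelial-like cells was 0.347 (0.311 to 0.387), and that of fibroblast-like to epithelial-like cells was 0.147. Of the summed metallothionein UMIs, MT1F made up 0.573% in cardiomyocytes, 1.04% in fibroblast-like and 8.28% in epithelial-like cells, and MT1G made up 9.03%, 1.5% and 2.10%. The MT1 genes are near-identical copies counted by their 3′ ends, so reads can be dropped or split among them, and the split between single MT1 genes is less certain than the sum.

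The rest of the family was rare. Of the 13 genes listed, 12 were in the files. MT3, the form known from brain, had 12.9 CPM in cardiomyocytes, 0.518 CPM in fibroblast-like and 0.279 CPM in epithelial-like cells, the last 2 at 4.02% and 2.16% of the first, above the range of the cardiomyocyte markers in fibroblast-like cells and within it in epithelial-like cells. MT1M had 2.69, 0.604 and 0.181 CPM and MT1H 2.25, 0.0863 and 0.209 CPM in these classes. The MT1H window held 8 core matches, as many as that of MT2A, and the windows of MT1B and MT4 held 3 each. MT1A gave 5, 2 and 0 counts, MT1HL1 gave 2, 0 and 0, and MT1B and MT4 gave 0 counts in all 3 classes, which at 3 counts allows up to 0.0326 CPM in cardiomyocytes, 0.259 CPM in fibroblast-like and 0.0418 CPM in epithelial-like cells.

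Cardiomyocytes did not carry metallothioneins evenly. The median cell had 179 CPM of the 5 summed genes, the 25th and 75th percentiles were 54.0 and 1085 CPM, and the 95th percentile was 4730 CPM. A limit of 500 CPM, set after the distribution was seen, was reached by 34.8% of cardiomyocytes (33.5 to 36.0%), 9.72% of fibroblast-like cells (7.50 to 12.3%) and 6.5% of epithelial-like cells (5.76 to 7.30%). These cardiomyocytes held 91.4% of all metallothionein UMIs of their class, and 134 cells lay within 10% of the limit. At the other end, 1034 cardiomyocytes (18.7%) had no metallothionein UMI at all, against 20.3% of fibroblast-like and 21.0% of epithelial-like cells. The share at 500 CPM after thinning was 34.8%, 11.6% and 8.37% in the same order. At 1000 CPM the unthinned shares were 26.2%, 1.94% and 1.73%. High cells were slightly shallower than the rest of the cardiomyocytes, at 15592 against 16516 median UMIs, with mitochondrial shares of 12.1% and 11.7%. From the shallowest to the deepest quartile of RNA UMIs the summed metallothioneins had 1339, 1157, 769 and 690 CPM, and from the lowest to the highest quartile of mitochondrial share 766, 872, 998 and 919 CPM.

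**Figure D2:**
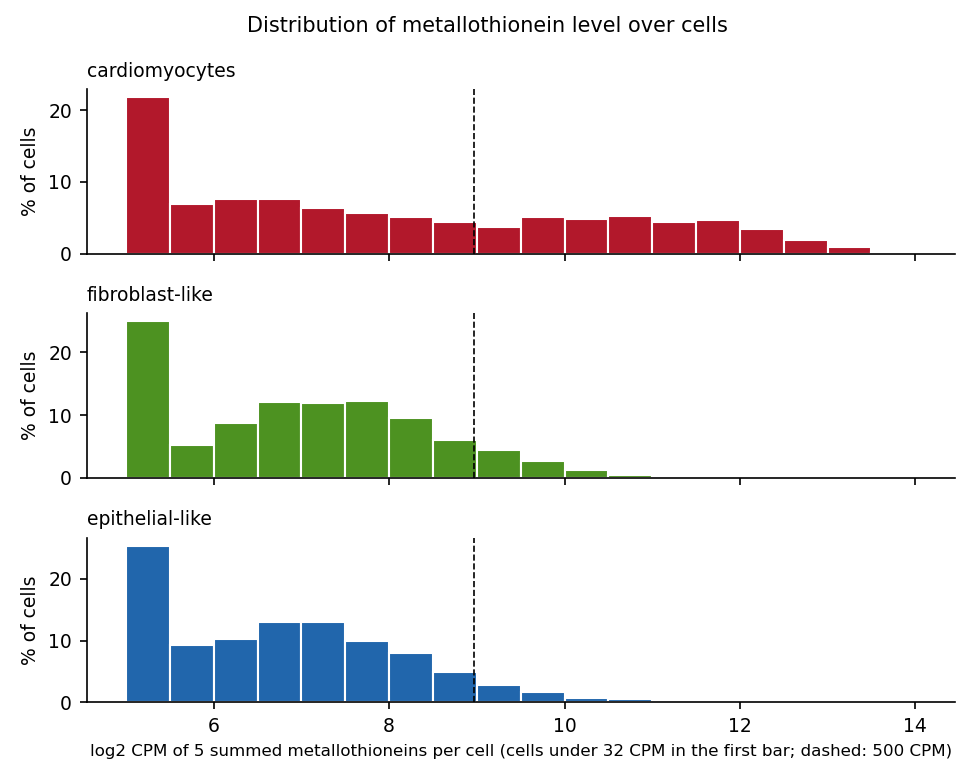
Share of cells (%) by the summed CPM of 5 metallothioneins per cell on a log2 axis, in cardiomyocytes, fibroblast-like and epithelial-like cells, with a dashed line at 500 CPM. Cardiomyocytes spread past the line (34.8% of cells), whereas 9.72% of fibroblast-like and 6.5% of epithelial-like cells do.

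The uneven levels were shared among the metallothioneins of a cardiomyocyte. Across 5516 cardiomyocytes, Pearson's r of log2(CPM + 100) was 0.70 between MT2A and MT1E, 0.70 between MT2A and MT1X, 0.69 between MT1E and MT1X and 0.62 between MT2A and MT1G. MT1F, with few counts, reached 0.26 with MT2A. In epithelial-like cells MT2A and MT1E had an r of 0.37 and in fibroblast-like cells of 0.29, and all other pairs of members were lower there. These coefficients describe cells that share 1 library and differ in depth, and counts were sparser in the other 2 classes.

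SLC30A1 was also highest in cardiomyocytes, but its order in the other classes was its own. The exporter had 129 CPM in cardiomyocytes (127 to 132), 29.4 CPM in fibroblast-like cells (26.4 to 32.7) and 59.3 CPM in epithelial-like cells (57.6 to 61.1). Cardiomyocytes lay 4.39-fold above fibroblast-like cells (3.95 to 4.91) and 2.18-fold above epithelial-like cells (2.10 to 2.26). Fibroblast-like cells had 0.496 of the epithelial-like level, although their MT2A and MT1E were 1.32-fold and 1.25-fold higher. Both low values lay above the cardiomyocyte markers, at 22.8% and 45.9% of the cardiomyocyte level. A SLC30A1 UMI was found in 37.9% of thinned cardiomyocytes, 13.2% of fibroblast-like and 24.4% of epithelial-like cells (63.5%, 39.1% and 53.9% unthinned).

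Within cardiomyocytes, SLC30A1 was higher the more metallothionein transcripts a cell held. Cardiomyocytes were put into quartiles, 4 groups cut at the 25th, 50th and 75th percentiles, of their summed metallothionein CPM, with limits at 54.0, 179 and 1085 CPM. From the lowest to the highest quartile SLC30A1 had 39.3, 51.9, 113 and 326 CPM. The highest quartile was 8.29-fold above the lowest (7.73 to 8.90), and 6.92-fold (6.29 to 7.63) when the groups and levels were both taken from thinned cells. A SLC30A1 UMI was found in 92.8% of cells of the highest and 40.7% of the lowest quartile, and in 70.5% and 20.2% after thinning, when the lowest group was the 2104 cells with no metallothionein UMI. Outside the metallothionein family this was the highest ratio of all measured genes, of which 1.99% were higher by the 1.5-fold rule and 3.72% lower. The next were RNF165, a ubiquitin ligase, at 4.69-fold, CD34 at 3.63-fold and MYL3, a ventricular myosin light chain, at 3.31-fold; these 3 were chosen with their values known. The quartiles and SLC30A1 were read from the same cells and library, so the ratio describes 1 culture and has no replicate check.

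Over doubling ranges of metallothionein level, the exporter was higher in each range than in the one before. SLC30A1 had 40.2 CPM in cells under 62.5 CPM of metallothioneins, 49.1 CPM at 62.5 to 125, 69.1 CPM at 125 to 250 and 102 CPM at 250 to 500. Above that it had 137 CPM at 500 to 1000, 213 CPM at 1000 to 2000, 318 CPM at 2000 to 4000 and 518 CPM (499 to 538) in the 383 cells at 4000 CPM or more. MT1G had 0.816 CPM in the lowest and 582 CPM in the highest range, which its part in the sum fixed.

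**Figure D3:**
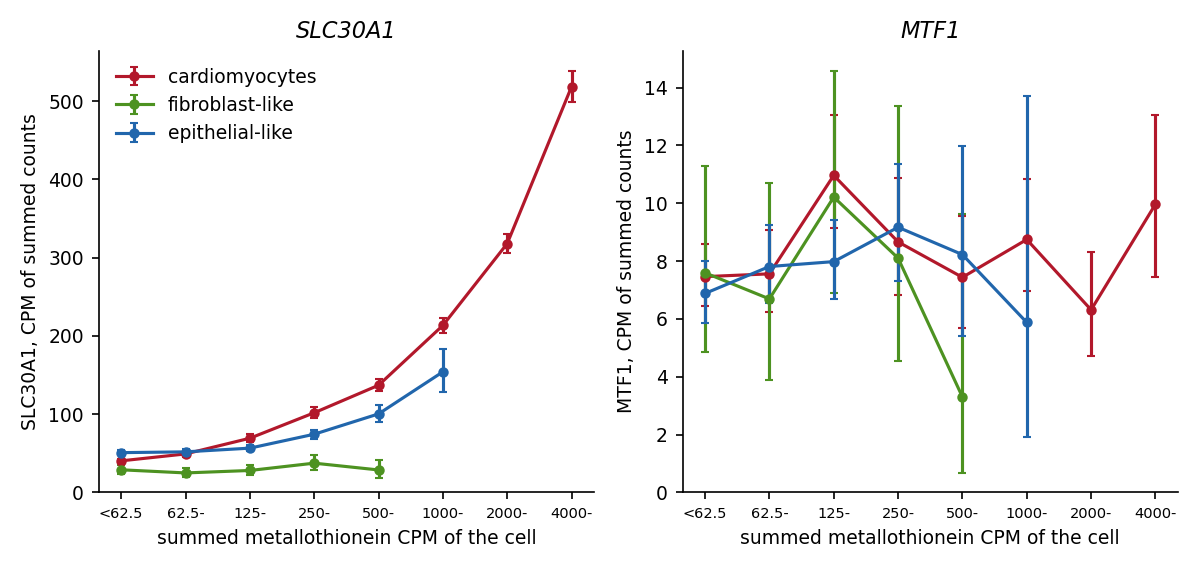
CPM of SLC30A1 (left) and MTF1 (right) in cells grouped by doubling ranges of summed metallothionein CPM, for cardiomyocytes, fibroblast-like and epithelial-like cells, with exact 95% counting intervals; ranges under 20 cells are left out. SLC30A1 reaches 518 CPM in the highest range of cardiomyocytes and lies between 24.8 and 37.3 CPM in fibroblast-like cells, and MTF1 lies between 3.30 and 11.0 CPM in all ranges shown.

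The other 2 classes differed in this relation. In epithelial-like cells SLC30A1 had 50.7 CPM in cells under 62.5 CPM of metallothioneins, 56.5 CPM at 125 to 250, 100 CPM (89.7 to 112) at 500 to 1000 and 154 CPM (129 to 183) at 1000 to 2000, the last from 48 cells. Their highest metallothionein quartile was 1.58-fold above the lowest (1.45 to 1.72), where 1.71% of genes were higher and 0.786% lower, and 1.23-fold (1.10 to 1.37) after thinning, when the comparison was between cells with and without a metallothionein UMI. In fibroblast-like cells SLC30A1 had 28.8 CPM (23.2 to 35.4) under 62.5 CPM and 28.6 CPM (18.7 to 41.9) at 500 to 1000. The quartile ratio there was 1.2 (0.887 to 1.64), where 3.47% of genes were higher and 5.32% lower. After thinning, again between cells with and without a metallothionein UMI, it was 0.894 (0.572 to 1.39). Both intervals include 1. At 500 to 1000 CPM of metallothioneins the exporter therefore had 137 CPM in cardiomyocytes, 28.6 CPM in fibroblast-like and 100 CPM in epithelial-like cells. Intervals of the fibroblast-like value and of the others did not overlap, but 48 fibroblast-like cells stood behind it.

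By correlation over the same single cells and library SLC30A1 also came first, so this ranking is not independent of the quartile ratios. Among 3061 genes outside the family at 50 CPM or more in cardiomyocytes, SLC30A1 had the highest Pearson correlation with the summed metallothioneins, at 0.67 over 5516 cells. TBX3, a transcription factor of the sinus node, came second at 0.35, followed by MYL3 at 0.32, the phosphodiesterase gene PDE1A at 0.31 and myoglobin, MB, at 0.27. The amidating enzyme gene PAM had 0.26, the calpain gene CAPN3 0.25, BMP5 0.25, muscle creatine kinase CKM 0.24 and the glutathione transferase gene GSTO1 0.23. The lowest were A2M, a protease inhibitor, at -0.26, brain creatine kinase CKB at -0.25, the angiopoietin gene ANGPT1 at -0.24, the thymosin gene TMSB4X at -0.24 and the metalloprotease inhibitor gene TIMP1 at -0.23. RNA UMIs per cell had an r of -0.05 with the metallothioneins. In epithelial-like cells SLC30A1 ranked second of 3223 genes, with an r of 0.17 beside the tubulin gene TUBA1B at the same rounded value, and in fibroblast-like cells it was not among the leading 10, which GADD45GIP1 led at 0.21.

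The counting intervals of MTF1 overlapped between the classes. The metal-sensing factor had 8.20 CPM in cardiomyocytes (7.62 to 8.81), 7.68 CPM in fibroblast-like cells (6.16 to 9.45) and 7.73 CPM in epithelial-like cells (7.10 to 8.40). The ratio of cardiomyocytes to epithelial-like cells was 1.06 and to fibroblast-like cells 1.07, with all 3 levels under the floor of 10 CPM, so MTF1 was counted in no comparison. Across quartiles of metallothionein level in cardiomyocytes it had 7.37, 8.57, 8.58 and 8.24 CPM from lowest to highest. The top to bottom ratio was 1.12 (0.901 to 1.39). Its correlation with SLC30A1 across cardiomyocytes was 0.0045. The highest and lowest metallothionein quartiles held 180 and 166 MTF1 UMIs, of 754 in all cardiomyocytes. A quartile difference inside the bounds of 0.901 to 1.39 was not detectable at this depth.

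Metallothioneins and the exporter were higher in cardiomyocytes with more TBX3, which encodes a transcriptional repressor of atrial working genes in the sinus node. The lowest quartile held the 1898 cells with no TBX3 UMI, the next 2 reached up to 83.9 and 272 CPM, and the quartiles held 1898, 860, 1379 and 1379 cells. Summed metallothioneins had 469, 506, 901 and 1723 CPM from the lowest to the highest quartile. All 5 members measured were higher in the highest quartile than in the lowest, beside 2.50% of all genes, and 0 were lower, beside 3.97%. MT2A had 850 CPM in the highest and 229 CPM in the lowest quartile (3.71-fold), MT1E 460 and 121 CPM (3.81-fold), MT1X 241 and 74.3 CPM (3.25-fold) and MT1G 163 and 42.6 CPM (3.83-fold). SLC30A1 had 82.5, 87.5, 129 and 222 CPM from the lowest quartile to the highest, a top to bottom ratio of 2.69 (2.56 to 2.83). MT1F stayed under the floor with 8.71 CPM in the highest and 2.63 CPM in the lowest quartile. MTF1 had 8.11, 8.43, 8.17 and 8.17 CPM over the 4 quartiles, a ratio of 1.01.

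**Figure D4:**
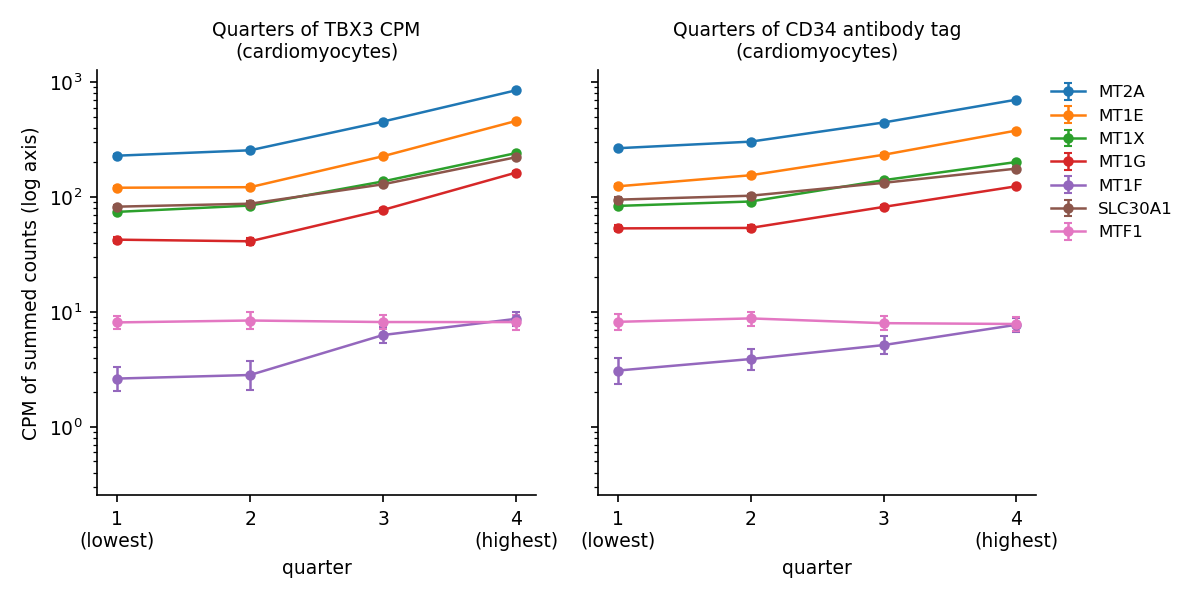
CPM (log axis) of the 7 genes in cardiomyocytes by quartile of TBX3 CPM (left) and of CD34 antibody tags (right), lowest quartile first, with exact 95% counting intervals. MT2A reaches 850 CPM in the highest TBX3 group and 704 CPM in the highest tag group, and MTF1 lies between 7.86 and 8.79 CPM in all groups.

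In the highest TBX3 group, cells high in metallothioneins were more frequent and also carried more. The share of cardiomyocytes at 500 CPM or more was 21.7%, 22.8%, 37.5% and 57.4% from the lowest to the highest TBX3 quartile. The median of those high cells was 1514, 1375, 1651 and 2362 CPM. The remaining cells had 95.9, 115, 131 and 138 CPM. Within the same range of metallothionein level the exporter was higher in the highest than in the lowest TBX3 quartile in all 5 ranges under 1000 CPM. The ranges do not make the level inside each equal, and counting intervals leave out the spread between cells. SLC30A1 had 56.4 and 34.7 CPM in these quartiles under 62.5 CPM of metallothioneins, 71.6 and 39.4 CPM at 62.5 to 125, and 86.9 and 55.1 CPM at 125 to 250. It had 128 and 90.1 CPM at 250 to 500, and 170 and 113 CPM at 500 to 1000, with intervals that did not overlap in any of the 5. Above that the intervals overlapped, with 235 and 217 CPM at 1000 to 2000, 329 and 345 CPM at 2000 to 4000, and 557 and 509 CPM at 4000 CPM or more.

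Depth, marker and cluster values moved with TBX3 as well. Median depths were 14859, 18684, 17055 and 15443 UMIs over the 4 quartiles, and mitochondrial shares were 12.1%, 12.2%, 11.8% and 11.3%. Inside each quartile of depth the TBX3 ratio of the summed metallothioneins ran between 2.76 and 4.28. The 6 cardiomyocyte markers summed to 44067 CPM in the highest and 35956 CPM in the lowest TBX3 quartile, and the 6 mesenchymal markers to 376 and 772 CPM; the part of either in the result was not tested. Of 9 working cardiomyocyte genes 1 was higher and 6 were lower in the highest than in the lowest TBX3 quartile, with a median log2 ratio of -1.58 against 0.04 over all genes, and their part was not tested either. Of 12 pacemaker genes 5 were higher and 1 lower, with a median log2 ratio of 0.48. TBX3 was among the 5, which the choice of quartiles fixed. Over all genes 2.50% were higher and 3.97% lower in this comparison. Drawn inside each RNA cluster and pooled, TBX3 quartiles gave 2.50-fold for the summed metallothioneins, 2.40-fold for MT1E and 2.04-fold for SLC30A1. All cells without a TBX3 UMI fell in the lowest group of their cluster. Clusters poor in TBX3 could thus give more cells to the lowest than to the highest group. Differences between clusters can therefore remain in these ratios.

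In the other classes these genes differed little with TBX3. TBX3 itself had 79.5 CPM in fibroblast-like and 81.9 CPM in epithelial-like cells, below the 193 CPM of cardiomyocytes. Summed metallothioneins were 224 CPM in the highest and 198 CPM in the lowest TBX3 quartile of fibroblast-like cells (1.13-fold, 1.02 to 1.26), and 183 and 161 CPM in those of epithelial-like cells (1.14-fold, 1.08 to 1.19). The SLC30A1 ratio was 1.0 (0.753 to 1.33) in fibroblast-like and 0.960 (0.885 to 1.04) in epithelial-like cells. The cardiomyocyte ratio of 3.67 for the summed metallothioneins lay outside those intervals, though TBX3 spanned a wider range there.

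CD34 protein, read as antibody tags, went the same way in cardiomyocytes. The quartiles had limits at 45, 85.5 and 279 tag UMIs and held 1403, 1355, 1378 and 1380 cells. Summed metallothioneins had 530, 608, 906 and 1417 CPM from the lowest quartile to the highest, and SLC30A1 had 94.9, 103, 133 and 177 CPM. All 5 measured members were higher in the highest than in the lowest quartile, beside 1.70% of all genes, and 0 were lower, beside 2.85%. Ratios were 2.65 for MT2A, 3.06 for MT1E, 2.41 for MT1X, 2.33 for MT1G and 1.86 for SLC30A1 (1.77 to 1.97). MTF1 had a ratio of 0.958, and MT1F, under the floor, had 7.74 CPM in the highest and 3.09 CPM in the lowest quartile. The share of cells at 500 CPM or more of metallothioneins was 23.2%, 25.1%, 37.7% and 53.1%. Median RNA depths were 14292, 16343, 16810.5 and 17064.5 UMIs over the quartiles; inside quartiles of depth the ratio of the summed metallothioneins ran between 2.58 and 3.60. Of the 9 working cardiomyocyte genes 1 was higher and 6 were lower in the highest tag quartile, with a median log2 ratio of -1.53 against 0.01 over all genes. NKX2-5, a transcription factor of the working myocardium, had 45.6, 33.8, 21.6 and 6.30 CPM from the lowest tag quartile to the highest, and the part of these markers in the result was not tested. In epithelial-like cells the tag limits at the 25th and 75th percentiles were 29 and 52 UMIs. The summed metallothioneins there had 186 CPM in the highest and 173 CPM in the lowest tag quartile (1.08-fold). In fibroblast-like cells the limits were 42 and 102 UMIs, and the sum had 230 and 206 CPM (1.11-fold). The tag thus spanned a wider range in cardiomyocytes.

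TBX3 and the tag went together, and ratios by TBX3 within tag groups were larger than ratios by tag within TBX3 groups. TBX3 had 379 CPM in the highest and 74.3 CPM in the lowest tag quartile. In cells lowest in both, the summed metallothioneins had 399 CPM (387 to 412, 772 cells), and in cells highest in both they had 1911 CPM (1887 to 1936, 720 cells). Inside the 4 TBX3 quartiles, from lowest to highest, the top to bottom tag ratio was 2.01, 2.04, 1.34 and 1.41. Inside the 4 tag quartiles the TBX3 ratio was 3.39, 3.01, 3.22 and 2.38. The groups compared differed in size and depth. In the highest TBX3 quartile, the lowest tag group held 124 cells (median 9871.5 UMIs) and the highest 720 cells (16145.5 UMIs). In the lowest TBX3 quartile they held 772 cells (12548 UMIs) and 129 cells (15080 UMIs). The part of depth in these ratios was not tested. For SLC30A1 the tag ratios inside TBX3 quartiles were 1.33, 1.39, 1.05 and 1.17, and the TBX3 ratios inside tag quartiles were 2.56, 2.50, 2.45 and 2.26. When tag quartiles were drawn inside TBX3 quartiles and pooled, 1 member, MT1E at 1.62-fold, still passed 1.5-fold, and MT2A and MT1X lay at 1.43-fold, MT1G at 1.25-fold and SLC30A1 at 1.2-fold. Drawn inside each RNA cluster, tag quartiles gave 1.84-fold for the summed metallothioneins, and 4 members passed 1.5-fold, all but SLC30A1 at 1.41-fold.

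**Figure D5:**
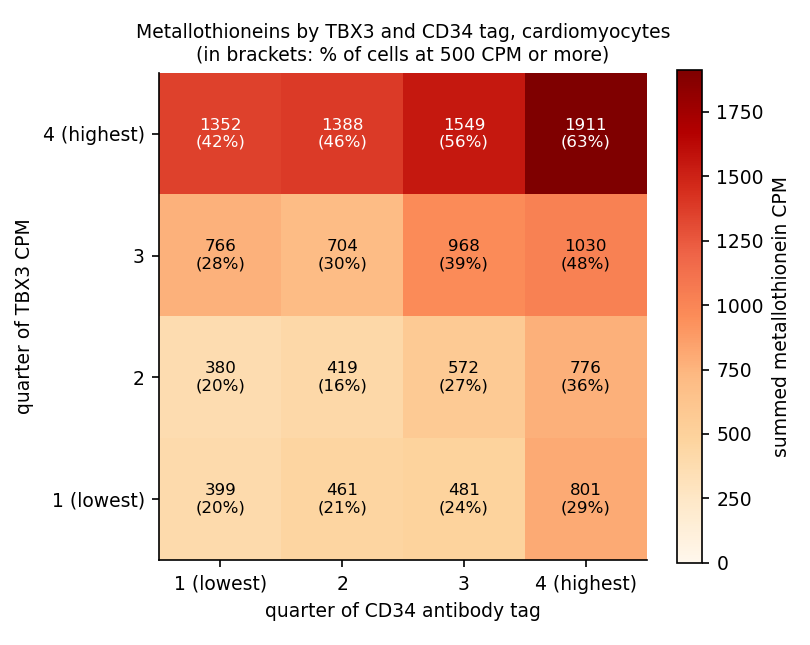
Summed metallothionein CPM in cardiomyocytes by quartile of TBX3 (rows, lowest at the bottom) and quartile of CD34 antibody tag (columns, lowest at the left), with the share of cells at 500 CPM or more in brackets. The corner lowest in both has 399 CPM and the corner highest in both 1911 CPM, the lowest value of all is 380 CPM, and the 2 lower TBX3 rows lie close together, with 801 and 776 CPM in the highest tag column.

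RNA clusters of cardiomyocytes, drawn without the 7 genes or the rest of the family, ranged from 165 to 1920 CPM of the summed metallothioneins. Cluster 6, led by BCL2A1, COL14A1 and MGP, had the lowest level, with 165 CPM and 6.0% of cells at 500 CPM or more. Cluster 17, led by the mitotic genes KIF20A and PLK1, had the highest, with 1920 CPM and 57.5% of cells. All 1224 cycling cardiomyocytes together had 1032 CPM, against 839 CPM in the 4292 others. However, cluster 11, led by the DNA replication genes DTL, CDC6 and MCM10, had 463 CPM and 23.0% of cells at 500 CPM or more. In cluster 16, led by histone genes such as HIST1H1B, the sum was 1086 CPM, with 41.6% of cells at 500 CPM or more. Cluster 8, led by TBX3, ALDH1A1 and NECAB1, had 1570 CPM, and cluster 9, led by the working myocardial genes NKX2-5 and NPPA among others, had 1212 CPM, with TBX3 at 455 and 154 CPM in the 2 clusters. Cluster 10, led by TRH, SERPINI1 and TNNI3, had 900 CPM with TBX3 at 72.1 CPM. Cluster 10 thus held metallothioneins near the mean of all cardiomyocytes, with TBX3 below their 193 CPM. SLC30A1 was lowest in cluster 6, at 50.8 CPM, and highest in cluster 17, at 248 CPM, while MTF1 lay between 5.50 and 9.63 CPM in all 10 clusters. Cluster 12, with 1781 CPM, held shallow cells with a median of 2270 UMIs and a mitochondrial share of 2.47%, and leaving it out changed no count of members.

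The SLC30 family carries zinc out of the cytosol and the SLC39 family into it. Of 7 SLC30 genes measured between cardiomyocytes and epithelial-like cells, 2 were higher and 2 lower, beside 20.7% and 27.9% of all genes, with a median log2 ratio of -0.15 against -0.12 over all genes. SLC30A3, a vesicular zinc transporter, had 14.2 CPM in cardiomyocytes and 0.390 CPM in epithelial-like cells, and SLC30A2 had 4.59 and 28.6 CPM. Of 10 SLC39 genes 2 were higher and 4 lower. SLC39A14, which also imports iron and manganese, was 4.04-fold higher, and SLC39A10 had 45.0 CPM in cardiomyocytes and 187 CPM in epithelial-like cells (0.240). Against fibroblast-like cells 2 of 6 SLC30 genes were higher and 1 lower, SLC30A7 with 9.88 CPM in cardiomyocytes and 28.9 CPM in fibroblast-like cells (0.342), and of 9 SLC39 genes 2 were higher and 3 lower, beside 20.2% and 24.4% of all genes. Between TBX3 quartiles 2 of 6 SLC30 genes were higher, SLC30A1 and SLC30A3 (23.2 CPM in the highest, 9.28 CPM in the lowest quartile, 2.50-fold), and 1 of 10 SLC39 genes, SLC39A8 (25.4 and 8.0 CPM, 3.17-fold). SLC39A4, the zinc importer of the gut, was the 1 lower gene, with 3.24 CPM in the highest and 12.2 CPM in the lowest quartile. Over all genes 2.50% were higher and 3.97% lower in that comparison. Between tag quartiles SLC30A3 (2.48-fold) and SLC39A8 (2.53-fold) were again higher, beside SLC30A1. Across metallothionein quartiles the same 3 genes passed 1.5-fold beside SLC30A1, SLC30A3 at 1.55-fold, SLC39A8 at 2.04-fold and SLC39A4 at 0.244, beside 1.99% of all genes higher and 3.72% lower. The remaining SLC30 and SLC39 genes measured lay between the limits in those quartiles.

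Lists of other genes that are known to act on or respond beside metallothioneins were read the same way in cardiomyocytes. Of 9 copper-handling genes measured, 7 genes of the NRF2 oxidant response and 9 heat shock genes, 0 passed 1.5-fold in either direction between quartiles of TBX3, of the tag or of the metallothioneins. Since between 1.70% and 3.97% of all genes passed in each direction of these comparisons, 0 in lists of this size is near the share of all genes. Of 9 iron-handling genes, HAMP, which encodes the iron hormone hepcidin, was higher in the highest metallothionein quartile, with 134 CPM there and 60.9 CPM in the lowest (2.19-fold). By TBX3, HAMP (3.37-fold) and the iron exporter gene SLC40A1 (1.55-fold) were higher, and by tag HAMP (3.04-fold). Of 6 hypoxia genes, EGLN3, an oxygen-sensing hydroxylase gene, was 1.70-fold higher by metallothioneins, with 58.9 and 34.7 CPM, 2.45-fold by TBX3 and 2.39-fold by tag. Of 8 glucocorticoid-response genes 2 were lower in the highest metallothionein quartile, TSC22D3 with 63.8 CPM there and 108 CPM in the lowest (0.589) and DUSP1 with 38.6 and 60.5 CPM (0.637). The same 2 genes were lower by TBX3 (0.521 and 0.620), and 0 passed by tag. Of 10 immediate early genes, which dissociation of tissue is known to induce, 0 were higher and 5 lower, FOSB (0.495), IER3 (0.553), JUNB (0.570), FOS (0.617) and KLF6 (0.664). By TBX3 4 were lower, IER3 (0.520), JUNB (0.573), KLF6 (0.643) and ATF3 (0.659), and by tag 0 were. The part of handling at dissociation in the metallothionein levels was not tested. Of 9 working cardiomyocyte genes 4 were lower, among them the gap junction gene GJA5 with 5.4 CPM in the highest and 38.7 CPM in the lowest metallothionein quartile (0.139), and PAM was higher (1.72-fold). Of 12 pacemaker genes TBX3 (2.81-fold) and the potassium channel gene KCNJ5 (1.80-fold) were higher and RGS6 was lower (0.616). SHOX2, a sinus node factor upstream of the pacemaker programme, had 530 CPM in the highest and 553 CPM in the lowest metallothionein quartile.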

How the data were processed

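The authors deposited whole-number UMI counts per gene and per antibody tag, made with Cell Ranger 6.1.2, per the file headers; GRCh38 is named in the submitters' processing notes. Later steps used Python 3.11.15, numpy 2.4.6, scipy 1.17.1, pandas 2.3.3, scanpy 1.11.5 and matplotlib 3.10.9. Counts were summed over a class or quartile and scaled to CPM. Intervals at 95% are exact, Poisson for levels and binomial for ratios and shares, and cover counting error only. Shares of cells at 500 or 1000 CPM of metallothioneins, including those by quartile and by cluster, came from unthinned cells unless thinning is named. Thinning reduced each cell to 5000 UMIs and left out 643 shallower cells. Detection of MT1G and SLC30A1 is given both thinned and unthinned. Near the class limits, within 10%, lay 93 cardiomyocytes and 24 fibroblast-like cells, and 34 epithelial-like cells had exactly 5 UMIs. Scrublet called 730 doublets (6.51%), which were kept and removed in an alternative. Clusters came from 2000 variable genes, 30 principal components, 15 neighbours and Leiden resolution 1, with the metallothionein family, SLC30A1 and MTF1 left out. The 7 genes and the gene lists were chosen with earlier results of these data known. All 7 were named, as were the 10 highest and 5 lowest correlations and, of each list, up to 4 genes with ratios farthest from 1. The 500 CPM limit and the alternatives on depth and the shallow cluster were chosen after the data were seen. The ratio and interval steps were tested on simulated counts with known folds and counting error only. The cutting into quartiles was tested on a plain series of numbers.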

Additional observations from a re-analysis of the deposited data

How the results depend on the processing

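Of 128 counts of members under alternatives to the cell filter, class limits, floor, fold, total, doublets, cycling cells, clusters and depth, 124 stayed within 1.5 times the reported count. With cycling cells left out, 1 member, MT2A at 1.61-fold, was higher in fibroblast-like than in epithelial-like cells. At a floor of 50 CPM, 0 members were lower in cardiomyocytes than in epithelial-like cells and 1 was lower in fibroblast-like than in epithelial-like cells, since MT1F then lies under the floor. With CD34 tag quartiles drawn inside TBX3 quartiles, 1 member was higher; the cause was not tested. Of 512 ratios under alternatives, 0 reversed and 154 lay outside the counting interval of the reported ratio. The ratio of the highest to the lowest TBX3 quartile ran from 2.50 to 4.0 for the summed metallothioneins and from 2.04 to 2.89 for SLC30A1, and the tag ratio of the sum from 1.45 to 3.30. Depth limits MTF1 and MT1F, which had under 10 CPM over all cardiomyocytes. With the total taken without mitochondrial and ribosomal protein genes, 6 members were higher between TBX3 quartiles. Near-identical MT1 copies limit the split between single genes, and 1 culture leaves the spread between cultures unmeasured. No paired analysis was possible because there is 1 library of each kind and no replicate.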
